A study of Mus musculus with 4 samples.

Results

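Genomic imprinting silences 1 parental copy of a gene, and some imprinted loci also carry microRNAs (miRNAs), short RNAs that Argonaute proteins hold and use to pair with target mRNAs. The miRNAs described here are the 10 mature arms of 5 hairpins at imprinted loci other than the large Dlk1-Dio3 and Sfmbt2 clusters. They are miR-335 of Mest, miR-296 and miR-298 beside Gnas and its antisense transcript Nespas, miR-483 of Igf2, and miR-675 of H19. They were chosen by locus and by exact name, and make up 10 of the 1900 names in the table. Mest, Nespas and Igf2 are known in the mouse as genes expressed from the paternal copy and H19 from the maternal copy. Igf2 encodes a fetal growth factor, H19 is a noncoding RNA that limits growth, and Gnas encodes the alpha subunit of the stimulatory G protein. A hairpin is cut into a 5p and a 3p arm, and bases 2 to 8 of a mature arm form the seed, the stretch that is the main determinant of which targets it pairs with.

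The GFP-AGO2 group (n = 2) was olfactory bulb of C57BL/6 mice given LV.PGK.GFP-AGO2, a viral vector named for the PGK promoter and for Argonaute2 (AGO2) joined to green fluorescent protein. The Control group (n = 2) was olfactory bulb of sham-injected C57BL/6 mice. Small RNA was sequenced after immunoprecipitation for AGO2, and the bulbs of both groups were taken 8 weeks after the injection. The study concerned let-7 in newborn neurons of the bulb. No label names the antibody, so what the Control libraries captured, endogenous AGO2 complexes or procedural background, is unknown, and every difference below is set against them. Nor do the labels tie libraries to separate animals, so the p-values reflect the spread among these libraries alone, which may be technical.

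Library totals were 2809758 and 1858354 miRNA counts in GFP-AGO2 replicates 1 and 3, and 1006861 and 673916 in Control replicates 1 and 3. The 7 neuronal marker miRNAs, among them miR-124-3p and miR-9-5p, were all counted. Together they took 1.97% and 1.79% of the counts in GFP-AGO2 and 1.32% and 1.53% in Control, but they did not move as a set. By share of counts, miR-9-5p, miR-9-3p, miR-128-3p and miR-137-3p were higher in both GFP-AGO2 libraries than in either Control library. MiR-138-5p was lower in both (log2 fold change of GFP-AGO2 over Control -0.82), and miR-124-3p and miR-132-3p overlapped between the groups. A share also depends on the rest of the total, of which the epithelial markers took far more in Control. In the edgeR fit, scaled as described under the processing, miR-9-5p (log2 fold change 1.14) and miR-9-3p (1.07) were called higher. MiR-128-3p (0.18), miR-137-3p (0.60), miR-124-3p (-0.15) and miR-132-3p (-0.17) were not called. The 8 epithelial markers of the miR-200 family and miR-183 cluster took 2.56% and 4.998% in GFP-AGO2, against 23.4% and 23.0% in Control. A list of 8 vessel, mesenchyme and meninges markers took 0.0310% and 0.154% in GFP-AGO2, against 0.439% and 0.323% in Control; miR-126a-5p and miR-126a-3p were at 0 in it. A list of 8 blood and immune markers took 0.00776% and 0.0232% in GFP-AGO2, against 0.0647% and 0.0559% in Control, with miR-142-3p at 0. The 3 oligodendrocyte markers were listed at 0. All of these names at 0 overlap another name in the table, so their zeros were not read as absence.

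The mature sequences are shown because the arms of this group are related by locus alone. Each is given 5′ to 3′ from RefSeq (GRCm38.p6, the same assembly as mm10), with the seed in capitals.
mmu-miR-335-5p: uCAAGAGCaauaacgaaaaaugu
mmu-miR-335-3p: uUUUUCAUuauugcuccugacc
mmu-miR-296-5p: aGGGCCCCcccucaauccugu
mmu-miR-296-3p: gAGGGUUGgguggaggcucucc
mmu-miR-298-5p: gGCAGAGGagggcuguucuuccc
mmu-miR-298-3p: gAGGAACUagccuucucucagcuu
mmu-miR-483-5p: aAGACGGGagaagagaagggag
mmu-miR-483-3p: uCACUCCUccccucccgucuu
mmu-miR-675-5p: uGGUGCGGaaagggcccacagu
mmu-miR-675-3p: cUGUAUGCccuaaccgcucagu

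All 10 members matched a RefSeq entry, and their 10 seeds were all different. No seed was shared with another of the 1679 mature names in the RefSeq table, where 72.1% of names had a seed of their own. The members thus do not form a seed family. The miR-335 arms are AU-rich, at 30.4% (5p) and 36.4% (3p) G or C, whereas the miR-296 arms have 66.7% (5p) and 68.2% (3p); the median over all mature names was 52.2%. MiR-483-5p is almost purely purine, at 21 of 22 bases, and no other mature name in the table reached its purine share.

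The positions of the members were each unique in the table, and none overlapped another name. The miR-335 arms lie on chromosome 6 (mm10, plus strand) at 30741314 to 30741336 (5p) and 30741354 to 30741375 (3p), in an intron of Mest in all 7 GENCODE transcripts over them. The miR-296 arms lie on chromosome 2 (minus strand) at 174267093 to 174267113 (5p) and 174267058 to 174267079 (3p). MiR-298-5p is at 174267553 to 174267575 and miR-298-3p at 174267514 to 174267535, and 378 bases separate the hairpins of miR-296 and miR-298. In GENCODE M21 neither hairpin lay inside an annotated host gene: 13651 bases lay between Mir298 and the nearest end of Nespas, which runs on the same strand, and 16734 between Mir298 and Gnas. The miR-483 arms lie on chromosome 7 (minus strand) at 142654968 to 142654989 (5p) and 142654932 to 142654952 (3p), in introns of Igf2 and of the overlapping gene model Gm49394. The miR-675 arms lie 77776 bases away, hairpin to hairpin, at 142577112 to 142577133 (5p) and 142577078 to 142577099 (3p), over an exon of H19 in 3 of 4 transcripts. No other miRNA name of the table lay within 100 kb of a member.

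Of the 10 members, 7 had counts and 3 were at 0 in all 4 libraries, namely miR-298-3p and both miR-675 arms. The same 7 passed the filter on low counts and were tested. As a share of all miRNA counts, the 10 members took 0.0697% and 0.0828% of GFP-AGO2 replicates 1 and 3, against 0.0569% and 0.0546% of Control replicates 1 and 3. Both GFP-AGO2 libraries lay above both Control libraries, with a difference of 0.0205 percentage points and the smallest p the exact two-sided permutation test can give with 2 against 2 (p = 0.333). With the miR-200 and miR-183 names left out of the total, the shares were 0.0716% and 0.0872% in GFP-AGO2 and 0.0748% and 0.0713% in Control, and the groups overlapped. The libraries come from immunoprecipitation for AGO2 on olfactory bulb, and what the Control libraries captured is unknown, as given above. In them, cell numbers, RNA per cell and the amount captured with AGO2 cannot be told apart.

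Mean CPM (counts relative to library sizes scaled by TMM) over the 4 libraries, divided by the length of each arm, gave the order of levels. The arms differ little in length, and mean CPM alone gave the same order, from 386 for miR-335-3p to 6.46 for miR-483-3p. MiR-335-3p led with 17.5 CPM per base, followed by miR-298-5p with 4.29, miR-296-3p with 3.44, miR-335-5p with 1.96 and miR-483-5p with 1.58. The lowest were miR-296-5p with 0.351 and miR-483-3p with 0.308 CPM per base. MiR-335-3p alone stood above every other member in all 4 libraries. MiR-298-5p stood above miR-296-3p in both GFP-AGO2 libraries and in Control replicate 1, and below it and miR-335-5p in Control replicate 3, so its second place rests on the GFP-AGO2 libraries. MiR-296-3p and miR-483-5p had the same count in Control replicate 1. The ranges of miR-335-5p and miR-483-5p overlapped in both groups. So did those of miR-483-5p and miR-296-5p and those of miR-296-5p and miR-483-3p.

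**Figure D1:**
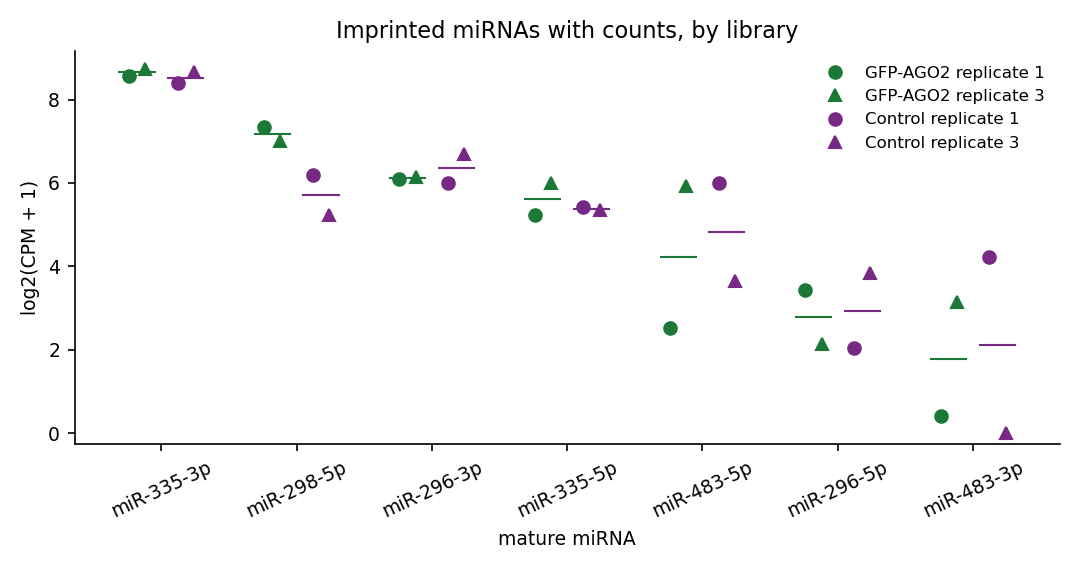
Level of the 7 imprinted miRNAs with counts in each library, as log2(CPM + 1) on the vertical axis; short lines are the means of these values over the 2 libraries of a group. MiR-335-3p is highest in every library, miR-298-5p is the one member whose GFP-AGO2 libraries both lie above both Control libraries, and the libraries of miR-483-5p and miR-483-3p lie far apart within each group.

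One member, miR-298-5p, rose in GFP-AGO2, and none fell. Among all 457 miRNAs tested, 17.3% were called higher and 17.1% lower, and so 1 rise among 7 tested members is near the background. Scaling by total counts alone called 100 miRNAs higher and 66 lower, against 79 and 78 with TMM. The median log2 fold change of the 7 members was -0.17, against -0.01 over all tested miRNAs. For the other imprinted clusters, 21 of 62 tested names of Dlk1-Dio3 were called higher and 6 lower, with a median of 0.90, and the single tested name of Sfmbt2 had -0.05. These lists were set side by side without a test between them.

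MiR-335 is the intronic miRNA of Mest and is known in human breast cancer cells as a suppressor of metastasis. Its hairpin is shown with the mature arms in capitals, because its 3p arm was the more abundant one in all 4 libraries.
Mir335 (chr6:30741299-30741396, plus strand, GRCm38.p6): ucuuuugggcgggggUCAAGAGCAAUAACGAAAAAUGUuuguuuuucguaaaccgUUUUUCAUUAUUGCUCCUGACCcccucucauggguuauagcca
The arm mmu-miR-335-3p had 1129 and 866 counts in GFP-AGO2 replicates 1 and 3, which is 380 and 425 CPM. In Control replicates 1 and 3 it had 322 and 245 counts, or 334.7 and 404 CPM. The groups overlapped. The log2 fold change was 0.13 (SE 0.17, edgeR adjusted p = 0.615), and its 95% interval, from -0.32 to 0.57, left out a 2-fold change in either direction. Its rank by count among all names was 123 and 117 in GFP-AGO2 and 128 and 115 in Control.

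The arm mmu-miR-335-5p had 36.7 and 62.8 CPM in GFP-AGO2 (109 and 128 counts) and 41.6 and 39.6 CPM in Control (40 and 24 counts). GFP-AGO2 replicate 1 lay below both Control libraries and replicate 3 above them. The log2 fold change was 0.29 (SE 0.37, edgeR adjusted p = 0.595), with an interval of -0.66 to 1.23. Without GFP-AGO2 replicate 3 it was -0.14, and likewise not called.

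The 5p arm held 8.80% and 12.9% of the miR-335 counts in GFP-AGO2 and 11.0% and 8.92% in Control. The exact 95% Clopper-Pearson intervals ran from 7.29% to 10.5% and from 10.9% to 15.1% for GFP-AGO2 replicates 1 and 3. They ran from 8.01% to 14.7% and from 5.80% to 12.98% for Control replicates 1 and 3. As log2 ratios of 5p to 3p, the groups averaged -3.06 ± 0.43 in GFP-AGO2 and -3.16 ± 0.23 in Control (SD, n = 2 each; exact permutation p = 1), and the libraries interleaved. A 3p arm higher than its 5p partner was common: of 103 hairpins with enough counts on both arms, 49.5% had it, and 22 had a lower ratio of 5p to 3p than miR-335.

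MiR-296 and miR-298 are neighbouring hairpins at the Gnas locus. MiR-296 is known in mouse embryonic stem cells as a regulator of Nanog and in human endothelial cells as a miRNA of vessel growth, and miR-298 is known in the mouse to target Bace1, the beta-secretase that cuts the amyloid precursor protein. Their hairpins are shown, with the mature arms in capitals, because they gave different results in the same libraries.
Mir298 (chr2:174267504-174267585, minus strand, GRCm38.p6): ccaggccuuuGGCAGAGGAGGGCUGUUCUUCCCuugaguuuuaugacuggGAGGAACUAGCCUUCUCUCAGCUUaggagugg
Mir296 (chr2:174267047-174267125, minus strand, GRCm38.p6): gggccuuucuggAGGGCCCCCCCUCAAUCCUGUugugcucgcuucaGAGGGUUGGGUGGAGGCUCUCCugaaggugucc

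The arm mmu-miR-298-5p had 476 and 258 counts in GFP-AGO2 replicates 1 and 3, or 160 and 127 CPM. In Control replicates 1 and 3 it had 69 and 22 counts, or 71.7 and 36.3 CPM. Both GFP-AGO2 libraries lay above both Control libraries, as they did for 36.8% of all tested miRNAs; 35.2% lay below in both. It was the one tested member separated in this way, in either direction. The means were 143 ± 23.8 CPM in GFP-AGO2 and 54.0 ± 25.04 CPM in Control (SD, n = 2 each). This is a 2.60-fold rise, with a log2 fold change of 1.38 (SE 0.36, edgeR adjusted p = 0.0358) and a 95% interval of 0.46 to 2.30.

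The size of this rise depended on which Control library was used. Without Control replicate 1 it was 4.24-fold, at a log2 fold change of 2.09 (edgeR adjusted p = 0.0116), and without Control replicate 3 it was 1.99-fold, at 0.99 (edgeR adjusted p = 0.0473). In these fits Control is a single library, which is assumed to vary like the GFP-AGO2 pair that supplies the spread. Scaling by total counts without the miR-200 and miR-183 names gave 1.24 and ended the call (edgeR adjusted p = 0.0552). The epithelial markers differed between the groups as given above, and their part in this result was not tested.

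MiR-298-3p, the partner arm, had 0 counts in each library. A count of 0 allows up to 1.01 and 1.47 CPM in GFP-AGO2 and up to 3.12 and 4.95 CPM in Control, taking 3 counts per library as the limit. With the 3p arm at that limit, the 5p arm was at least 159-fold and 86.0-fold higher in the GFP-AGO2 libraries and at least 23.0-fold and 7.33-fold higher in the Control libraries. The table's interval for miR-298-3p starts at the same 5′ base as the RefSeq entry and stops short of its 3′ end, where RefSeq places the low coordinate at 174267512.

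The arm mmu-miR-296-3p had 67.6 and 69.7 CPM in GFP-AGO2 (201 and 142 counts) and 63.4 and 102 CPM in Control (61 and 62 counts). Both GFP-AGO2 libraries lay between the Control libraries. The log2 fold change was -0.26 (SE 0.31, edgeR adjusted p = 0.555), with an interval of -1.03 to 0.52. MiR-296-5p was scarce, with 29 and 7 counts in GFP-AGO2 and 3 and 8 in Control. Its log2 fold change was -0.17 (SE 0.97, edgeR adjusted p = 0.917), and the interval of -2.62 to 2.28 left the direction undetermined at this depth.

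The ratio of miR-298-5p to miR-296-3p, a comparison added after the data were seen, needs no scaling between libraries. On the log2 scale it was 1.24 and 0.86 in GFP-AGO2 replicates 1 and 3, and 0.18 and -1.47 in Control replicates 1 and 3. Both GFP-AGO2 libraries lay above both Control libraries, by 1.70 on average (exact permutation p = 0.333, the smallest possible). Leaving out 1 Control library moved the difference to 0.87 or 2.52. The ratio of the miR-296 arms averaged -3.51 ± 1.04 in GFP-AGO2 and -3.51 ± 0.89 in Control (log2 of 5p over 3p, SD, n = 2 each; exact permutation p = 1), on few 5p counts.

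**Figure D2:**
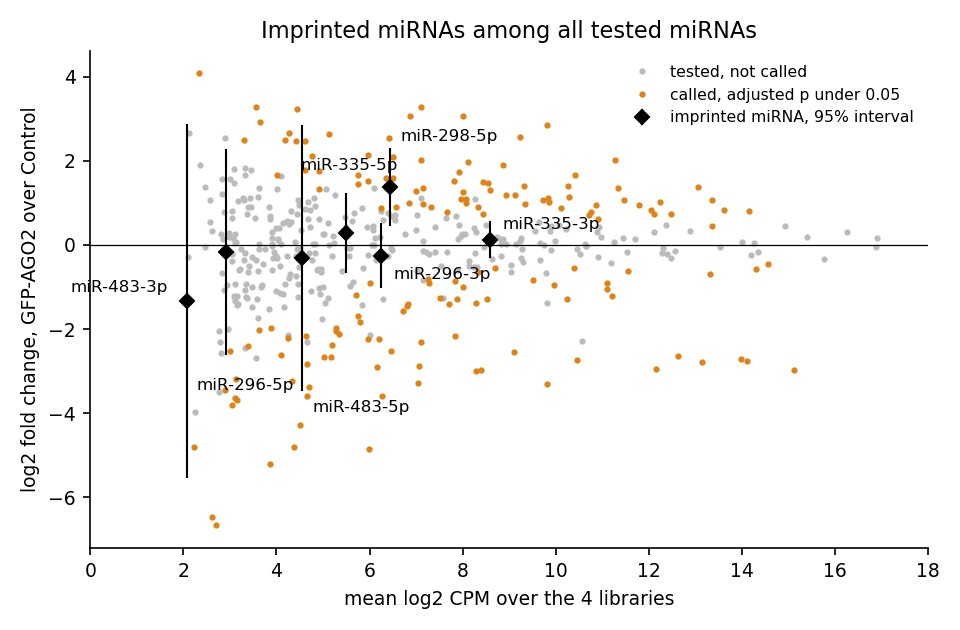
Log2 fold change of GFP-AGO2 over Control against mean log2 CPM for the 457 tested miRNAs, with the 7 imprinted members as diamonds and 95% intervals as bars. MiR-298-5p at 1.38 has an interval above 0, miR-335-3p at 0.13 has the narrowest interval of the members, and the intervals of the miR-483 arms and miR-296-5p span several log2 units.

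MiR-483 lies in an intron of Igf2 and is known to be expressed together with that gene in fetal tissues and in tumours. Its hairpin is shown, with the mature arms in capitals, for the purine run of the 5p arm and the pyrimidine run of the 3p arm.
Mir483 (chr7:142654924-142654996, minus strand, GRCm38.p6): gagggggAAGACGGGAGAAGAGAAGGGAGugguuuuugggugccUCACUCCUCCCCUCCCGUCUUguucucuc
The arm mmu-miR-483-5p had 14 and 121 counts in GFP-AGO2 replicates 1 and 3, or 4.71 and 59.4 CPM. In Control replicates 1 and 3 it had 61 and 7 counts, or 63.4 and 11.6 CPM. It was thus high in 1 library of each group and low in the other, and the groups overlapped throughout. The GFP-AGO2 libraries differed 12.6-fold and the Control libraries 5.49-fold. None of the 457 tested miRNAs had a wider gap between the GFP-AGO2 libraries, and 10 had a wider gap between the Control libraries; the median gaps were 0.29 and 0.30 on the log2 scale.

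MiR-483-3p followed the same pattern, with 1 and 16 counts in GFP-AGO2 and 17 and 0 in Control. A wider gap was found for 2 tested miRNAs between the GFP-AGO2 libraries and for 1 between the Control libraries. At counts this low, the size of these log2 gaps depends on the prior count of 2. The 5p arm held 93.3% and 88.3% of the miR-483 counts in GFP-AGO2 and 78.2% and 100% in Control, where the last value rests on 7 reads (exact 95% Clopper-Pearson interval 59.0% to 100%). Both arms thus moved together between libraries of the same group, with the 5p arm the major one in each.

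Between the groups, miR-483-5p had a log2 fold change of -0.30 (SE 1.25, edgeR adjusted p = 0.883) with an interval of -3.47 to 2.86. MiR-483-3p had -1.32 (SE 1.66, edgeR adjusted p = 0.572) with an interval of -5.55 to 2.87. Both values hang on single libraries. Leaving out GFP-AGO2 replicate 3 gave miR-483-5p a log2 fold change of -3.01, leaving out GFP-AGO2 replicate 1 gave 0.62 and leaving out Control replicate 1 gave 1.51. The first passed the threshold (edgeR adjusted p = 0.0003), but its spread comes from the Control libraries alone, and the single GFP-AGO2 library is assumed to vary like them. Of the vessel, mesenchyme and meninges markers, 6 had counts, and all 6 were higher as a share of counts in GFP-AGO2 replicate 3 than in replicate 1. Between the Control libraries 3 of the 6 were higher in replicate 1, among them miR-214-3p as a near tie, and 3 in replicate 3. The GFP-AGO2 direction was not particular to this list. It held for 8 of 8 epithelial markers, 6 of 7 blood and immune markers with counts, and 2 of 7 neuronal markers. Higher in Control replicate 1 than in replicate 3 were 5 of 8 epithelial, 3 of 7 blood and immune, and 3 of 7 neuronal markers. Summed shares of all these lists are given above, and their part in the miR-483 result was not tested.

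**Figure D3:**
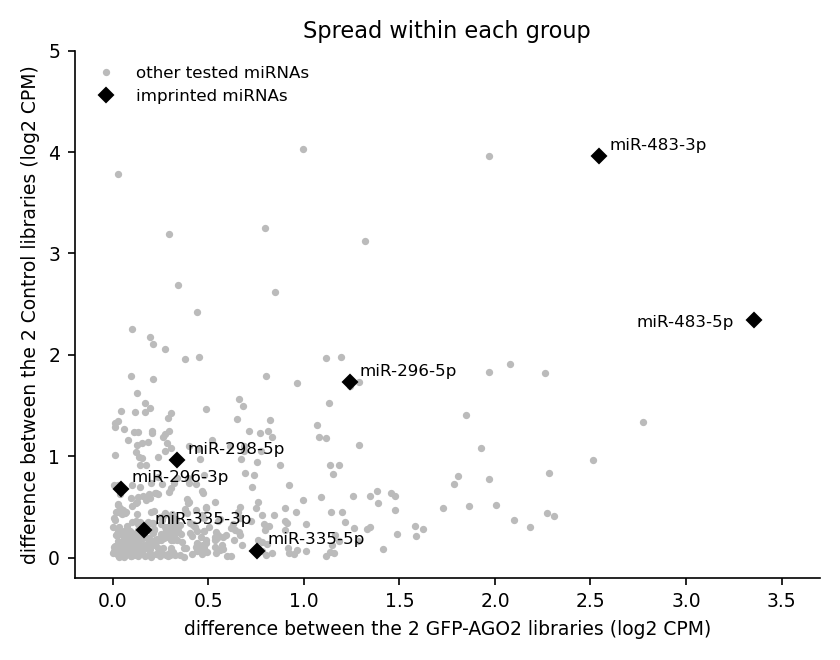
Difference in log2 CPM between the 2 GFP-AGO2 libraries (horizontal) and between the 2 Control libraries (vertical), without sign, for each of the 457 tested miRNAs. MiR-483-5p at 3.35 and 2.34 and miR-483-3p at 2.55 and 3.96 have wide gaps in both groups. MiR-335-3p at 0.16 and 0.27 lies below the medians of 0.29 and 0.30.

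MiR-675 is cut from an exon of H19 and is known in the mouse placenta to limit growth through Igf1r. Neither of its arms, shown above with their seeds, had a count in any library. The same limits as for miR-298-3p apply, up to 1.01 and 1.47 CPM in GFP-AGO2 and up to 3.12 and 4.95 CPM in Control. These limits and the Clopper-Pearson intervals above cover counting error only, with PCR copies counted as separate reads. No fold change can be given for it.

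**Figure D4:**
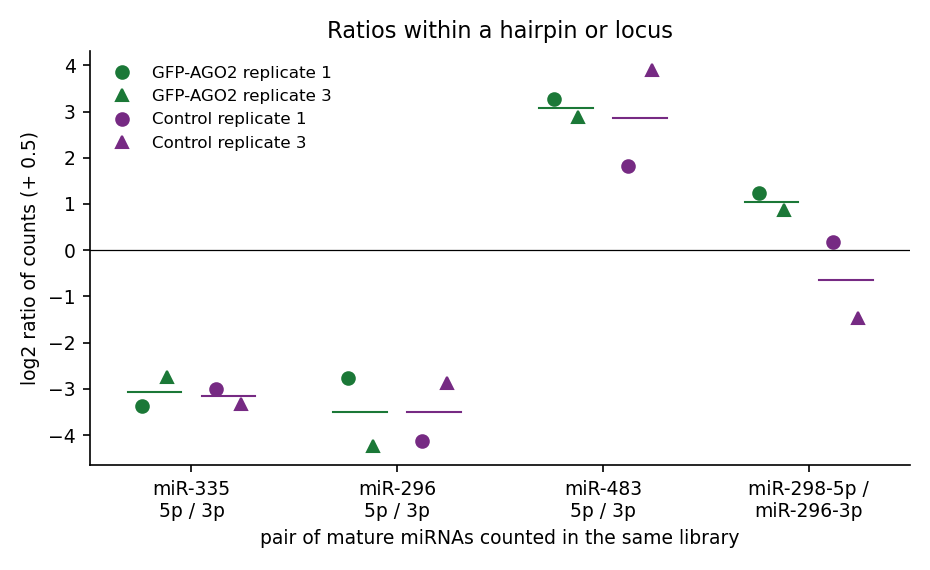
Log2 ratio of counts, with 0.5 added to each, between the 5p and 3p arms of miR-335, miR-296 and miR-483 and between the neighbouring miR-298-5p and miR-296-3p, for each library; short lines are group means. The 3p arm leads for miR-335 and miR-296 and the 5p arm for miR-483 in every library, and the groups are apart only for miR-298-5p over miR-296-3p. That ratio was added after the data were seen (exact permutation p = 0.333, the smallest possible).

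The tested miRNAs whose pattern over the 4 libraries was most like that of each member were found by the Euclidean distance between centred log2 CPM values. With 4 libraries and 456 candidates a close match is a description only. For miR-335-3p they were miR-7068-3p, miR-21a-5p and miR-134-5p, at distances of 0.06 to 0.16. For miR-335-5p they were miR-344b-3p, miR-125b-5p and miR-103-3p (0.26 to 0.30). For miR-298-5p they were miR-6911-3p, miR-345-3p and miR-148b-5p (0.33 to 0.49), and of these only miR-148b-5p was itself called higher (log2 fold change 1.78, edgeR adjusted p = 0.0293). For miR-296-3p they were miR-21c, miR-7688-5p and miR-16-1-3p (0.16 to 0.20), and for miR-296-5p miR-487b-5p, miR-301a-3p and miR-154-5p (0.47 to 0.60).

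The miR-483 arms had no close match. The nearest to miR-483-5p were miR-322-3p, at a distance of 0.92, miR-3093-3p at 1.26 and its own partner arm at 1.30. MiR-322-3p had 3.03 and 19.1 CPM in GFP-AGO2 and 32.2 and 8.25 CPM in Control, with the same high and low libraries. For miR-483-3p the nearest were miR-483-5p, miR-1247-5p (1.36) and miR-322-3p (1.63).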

How the data were processed

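Small RNA was sequenced after AGO2 immunoprecipitation from 4 olfactory bulb samples. The deposited table holds raw whole-number counts per mature miRNA name; per the file headers, the authors counted primary alignments over an mm10 miRNA annotation by featureCounts v1.4.6-p1, with no strand option and no option for reads that overlap several names. The submitters' processing notes name cutadapt and STAR, without versions. Columns were tied to samples by title.

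From these counts, edgeR 4.0.16 in R 4.3.3 gave two-sided quasi-likelihood F tests on the group alone (filterByExpr at a minimum count of 10, TMM factors, Benjamini-Hochberg adjustment over all 457 miRNAs tested, called at an adjusted p under 0.05). Log2 fold changes set GFP-AGO2 over Control, with the SE and 95% interval from the fit. CPM uses the TMM-scaled library size, and log2 CPM a prior count of 2. Shares and ratios of counts (0.5 added) were compared by exact permutation. Replicates of a group differed by far more than sampling noise, at a chi-square of 100.4 times its degrees of freedom in GFP-AGO2 and 11.9 times in Control. DESeq2 1.42.0, other scalings, filters and totals, the replicate number as a block, and leaving out each library were alternatives.

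The members and lists were chosen with earlier results of these data known. All 10 members are named; other miRNAs are named for the nearest pattern (3 per tested member), for lying within 100 kb, or for a shared seed, and the last pair gave none. Host genes are from GENCODE M21 and sequences from RefSeq (GRCm38.p6). Of the 1900 miRNA names, 1603 matched a RefSeq sequence, and the seeds of the rest were not compared.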

Additional observations from a re-analysis of the deposited data

How the results depend on the processing

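Of 148 recomputed values, 132 kept their direction and their side of the threshold, or moved by less than the spread between replicates. A number of called miRNAs was instead taken as kept if its ratio to the main number was small. With no filter, 118 called higher against 79 was still taken as kept. MiR-298-5p stayed above Control in every alternative, from 1.24 to 1.62 with all 4 libraries, and was not called with total counts without miR-200 and miR-183 (1.24). Leaving out 1 library gave it 0.99 to 2.09 on the log2 scale. MiR-296-5p changed sign with total counts alone (0.044) and with no filter (0.056). These 2 settings moved the median of all miRNAs by 0.21 and 0.24, and total counts without miR-200 and miR-183 by -0.12. Leaving out 1 library gave -0.14 to 0.65 for miR-335-5p, 0.06 to 0.25 for miR-335-3p, -1.12 to 1.10 for miR-296-5p and -0.48 to 0.10 for miR-296-3p. It gave -3.01 to 1.51 for miR-483-5p and -4.51 to 5.86 for miR-483-3p. The 5.86 is from the fit without Control replicate 1. Control replicate 3, then the only Control library, had 0 counts of miR-483-3p, so the size of that value is undetermined. The difference in the members' summed share, 0.0205 percentage points, was 0.00635 with miR-200 and miR-183 left out of the total and 0.0478 with names of several positions left out. Under these totals that of miR-335-3p, 0.00922, was 0.000434 and 0.0234, and that of miR-335-5p, 0.00162, was 0.0036 without names of several positions. Total counts alone called 100 miRNAs higher and 66 lower, against 79 and 78. The cause was not tested. With the replicate number as a block, 79 miRNAs were called higher and 85 lower, and no member's call changed; deviations of same-numbered libraries had a correlation of -0.06, so the numbers were not taken as pairs. Each fit that leaves out 1 library takes its spread from the other group alone. With 2 libraries in each group, and 34 and 47 counts in all for miR-483-3p and miR-296-5p, precision is limited.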
